A study of Solanum lycopersicum with 18 samples.

Results

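A shared peak is an m6A peak that lies in more than 1 annotated tomato gene at the same time, so that a single peak names a set of overlapping or adjoining neighbours. Shared peaks were taken from 9 m6A-seq peak lists as the peaks (chromosome, start and end) that named 2 or more distinct genes. They made up 11995 of the 89159 peaks in the lists and of the 84759 peaks in any gene, whereas 72764 peaks named 1 gene. The lists came from fruit pericarp of tomato (Solanum lycopersicum, cv. Ailsa Craig) in 3 groups of 3 biological replicates. The groups were fruit of the Colorless non-ripening (Cnr) mutant at 42 days post-anthesis (DPA), wild-type (WT) fruit at 42 DPA, and WT fruit at 39 DPA. Cnr is a ripening-deficient epimutant in the Ailsa Craig background, and each RNA sample was a mix of many fruits. WT fruit are at the breaker stage at 42 DPA and mature green at 39 DPA, while Cnr fruit of 42 DPA are matched to WT by age and do not enter normal ripening. In m6A-seq, mRNA fragments are immunoprecipitated (IP) with an antibody against N6-methyladenosine and sequenced beside the untreated mRNA (input). Each list was called in 1 IP library against its own input, and the lists hold no gene expression values, so the tissue could not be checked against marker genes.

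N6-methyladenosine is a methyl mark placed on adenosines inside mRNA. It is installed by a methyltransferase complex, removed by demethylases of the AlkB family and read by YTH-domain proteins, and in plants it lies mostly around the stop codon and in the 3′ untranslated region (3′ UTR). Neighbouring genes on opposite strands that point towards each other (convergent genes) can have transcript ends that overlap. A peak at such a site can come from the transcript of either gene. The library kit does not mark the strand, so the peak lists cannot tell which gene of a set carried the methylated RNA, or whether more than 1 did.

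The number of shared peaks ranged between 1254 and 1378 over the 9 libraries. There were 1343, 1353 and 1322 shared peaks in the Cnr 42 DPA libraries and 1320, 1338 and 1254 in the WT 42 DPA libraries. The WT 39 DPA libraries held 1378, 1315 and 1372. The groups overlapped in both comparisons, with means of 1339 ± 15.8 in Cnr 42 DPA and 1304 ± 44.2 in WT 42 DPA (SD, n = 3 each; exact permutation test, two-sided p = 0.2) and of 1304 ± 44.2 in WT 42 DPA and 1355 ± 34.8 in WT 39 DPA (n = 3 each; exact p = 0.3). As a share of the peaks in genes, shared peaks took 14.25 ± 0.136% in Cnr 42 DPA and 14.16 ± 0.0549% in WT 42 DPA (SD, n = 3 each; exact permutation p = 0.3). The WT 42 DPA share stood beside 14.05 ± 0.135% in WT 39 DPA (n = 3; exact permutation p = 0.3). With 3 libraries against 3 the smallest p such a test can give is 0.1, so no difference between groups in these counts and shares could pass 0.05. With same-numbered Cnr and WT 42 DPA libraries taken as pairs, a test chosen after the data were seen, Cnr was higher in 3 of 3 pairs for the count (mean difference 35.3 peaks) and for the share (0.0961 percentage points). The exact sign-flip permutation p was 0.25 for each, the smallest that 3 pairs can give.

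Many genes were named in these lists only by a shared peak, which does not show that the gene itself carried m6A. Of the 11176 genes with a peak in any library, 2818 (25.2%) lay in a shared peak, and 2289 of them had no other peak in any list. Per library, the transcripts whose peaks were all shared made up 21.73 ± 0.176% of the genes with a peak in Cnr 42 DPA, 21.70 ± 0.152% in WT 42 DPA and 21.41 ± 0.260% in WT 39 DPA (SD, n = 3 each; exact permutation p = 0.7 for Cnr against WT 42 DPA and 0.2 for WT 42 against WT 39 DPA). Most shared genes were shared at a single place, with 2432 genes in 1 shared region, 343 in 2 and 36 in 3.

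When peaks that overlapped by at least 1 bp between libraries were merged, the 9 lists gave 12119 regions, of which 11393 named a gene and 1602 held a shared peak in at least 1 library. Of these 1602 regions, 1064 (66.4%) were shared in all 9 libraries, and 1056 of the 1064 named exactly the same genes each time. Another 458 were not called everywhere but were shared wherever a peak was called. There were 70 regions with a peak in all 9 libraries that named 2 or more genes in some libraries and fewer in others. Among these 70, 21 were shared in all 3 Cnr 42 DPA libraries and 11 in none of them, against 20 and 29 in WT 42 DPA and 22 and 26 in WT 39 DPA.

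The gene ends met in the peaks were mostly 3′ ends. Each gene of a peak carries a label for the part of it that lies at the beginning, the centre and the end of the peak, read in the direction of the gene. From these labels each gene was put at its 3′ end (any 3′ UTR label, or the peak running past its last base), its 5′ end, an intron, a coding exon, or as a whole gene inside the peak. On average 825 shared peaks per library (61.9 ± 1.28%, SD, n = 9) joined 2 3′ ends. Pairs of a 3′ end with an intron followed with 219 peaks (16.4%), and pairs of a 3′ end with a 5′ end with 125 (9.36%). Peaks with 3 or more genes numbered 58.9 (4.42%), pairs of a 3′ end with a coding exon 46.6 (3.49%), and all other pairs 58.6 (4.39%). Each library held 54 to 62 peaks with 3 genes, and a single peak with 4 genes occurred in every Cnr 42 DPA and WT 39 DPA library and in none of WT 42 DPA.

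The most frequent set of labels put 1 gene in its last exon at the beginning and centre of the peak and in its 3′ UTR at the end, while the other gene was in its 3′ UTR throughout (127.8 peaks per library). Next came the same arrangement with the first gene already in its 3′ UTR at the centre (115.7 per library), and both genes in the 3′ UTR from beginning to end (94.9 per library). In the first and second of these sets the peak runs from the last exon of 1 gene into its 3′ UTR. There were 1077 combinations of labels in all. The centre of the peak lay in both genes in 81.8 ± 0.704% of the peaks with 2 genes (SD, n = 9 libraries), in 1 gene in 15.4% and in neither in 2.72%.

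Against peaks in 1 gene, shared peaks met more introns and 5′ ends. Of the gene labels of shared peaks, 79.7% were 3′ ends, 10.1% introns, 6.15% 5′ ends and 3.69% coding exons, averaged over the 9 libraries. In peaks with 1 gene these shares were 87.9%, 3.69%, 2.03% and 6.22%. A 5′ end or an intron in a shared peak was most often paired with the 3′ end of a neighbour, as the counts of pairs above show.

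The 3 most frequent kinds of pair kept their order in all 3 groups, and no difference between groups passed the test. Pairs of 3′ ends made up 63.2 ± 1.11% of the shared peaks in Cnr 42 DPA and 61.2 ± 0.163% in WT 42 DPA (SD, n = 3 each; groups not overlapping; exact permutation p = 0.1, Benjamini-Hochberg adjusted p = 0.24 over 12 tests). The other pairs took 2.90 ± 1.10% in Cnr 42 DPA and 5.24 ± 0.155% in WT 42 DPA (n = 3 each; not overlapping; exact p = 0.1, adjusted p = 0.24). In peaks these were 34, 56 and 27 in the Cnr 42 DPA libraries, 68, 69 and 68 in WT 42 DPA, and 77, 60 and 68 in WT 39 DPA. Peaks with 3 or more genes took 4.63 ± 0.0237% in Cnr 42 DPA, against 4.24 ± 0.0711% in WT 42 DPA and 4.38 ± 0.0595% in WT 39 DPA (n = 3 each; exact p = 0.1 in both comparisons, adjusted p = 0.24). Pairs of a 3′ end with a 5′ end took 9.56 ± 0.0428% in Cnr 42 DPA and 9.32 ± 0.271% in WT 42 DPA (n = 3 each; not overlapping; exact permutation p = 0.1, adjusted p = 0.24). None of the 12 tests gave an adjusted p under 0.24. The share of coding exons moved in the same libraries among peaks with 1 gene, where it was 2.91, 6.72 and 2.16% in Cnr 42 DPA, 7.13, 7.10 and 6.87% in WT 42 DPA and 8.42, 7.07 and 7.60% in WT 39 DPA, and its part in the shift of the pair types was not tested.

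**Figure D1:**
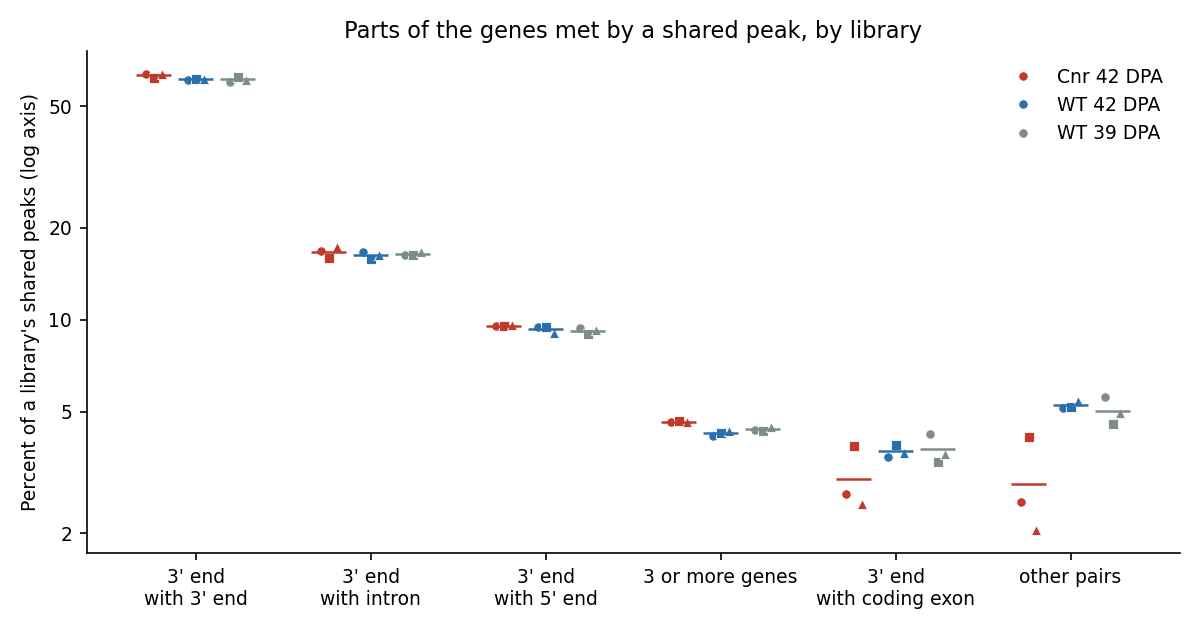
Percent of a library's shared peaks (log axis) by the kind of gene pair, for Cnr 42 DPA (red), WT 42 DPA (blue) and WT 39 DPA (grey); each marker is a library (circle, square and triangle for replicates 1, 2 and 3) and each line the mean of 3. Pairs of 3′ ends lead in every library, and the other pairs lie at a mean of 2.90% in Cnr 42 DPA, 5.24% in WT 42 DPA and 5.04% in WT 39 DPA.

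A single locus made up part of the gap in the other pairs, and it was picked out after its values were seen. Solyc02g086460.3, described as an A-kinase anchor-like protein, is a gene of 17728 bp on the plus strand of chromosome 2 (49761704 to 49779431, genome build SL3.0), and its peaks were shared with Solyc02g086463.1 and Solyc02g086467.1, which overlap it on the other strand. It held 5, 8 and 4 shared peaks in the Cnr 42 DPA libraries, 14, 14 and 18 in WT 42 DPA, and 14, 16 and 13 in WT 39 DPA. No gene outside this locus lay in more than 4 shared regions, and the enrichments there were low, between 1.28 and 3.89. Without this locus the other pairs numbered 31, 50 and 25 in Cnr 42 DPA, 55, 56 and 51 in WT 42 DPA, and 64, 45 and 56 in WT 39 DPA.

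The arrangement of the genes could be read for a subset of the pairs. The lists give coordinates only for genes named as the closest start site of some peak. A strand is also known for genes named as the downstream gene of some peak on the plus or minus strand. Of 1371 distinct pairs, 793 had both strands, and 616 of these (77.7%) lay on opposite strands. The pairs of 3′ ends were on opposite strands in 466 of 514 cases (90.7%). Pairs of a 3′ end with an intron were so in 69 of 124 (55.6%) and pairs of a 3′ end with a 5′ end in 38 of 88 (43.2%). For 313 pairs both coordinates were known, and 289 (92.3%) overlapped, by a median of 2004 bp (quartiles 1004 and 3424, longest 11527). The other 24 pairs were separated by a median gap of 94.5 bp, at most 531 bp. Convergent pairs were the most frequent with 233, followed by 45 in tandem on 1 strand and 35 divergent. In 86 of the 313 pairs 1 gene lay wholly inside the other. The arrangement was read from the strands and from which gene started first on the chromosome, in these nested pairs too. All 13 divergent pairs of 3′ ends and all 9 divergent pairs of a 3′ end with an intron were nested. Divergent there does not mean neighbours lying head to head. In these pairs 82.3% of 2946 summits, the points of highest enrichment within peaks, fell inside both genes, 15.4% inside 1 and 2.27% inside neither.

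**Figure D2:**
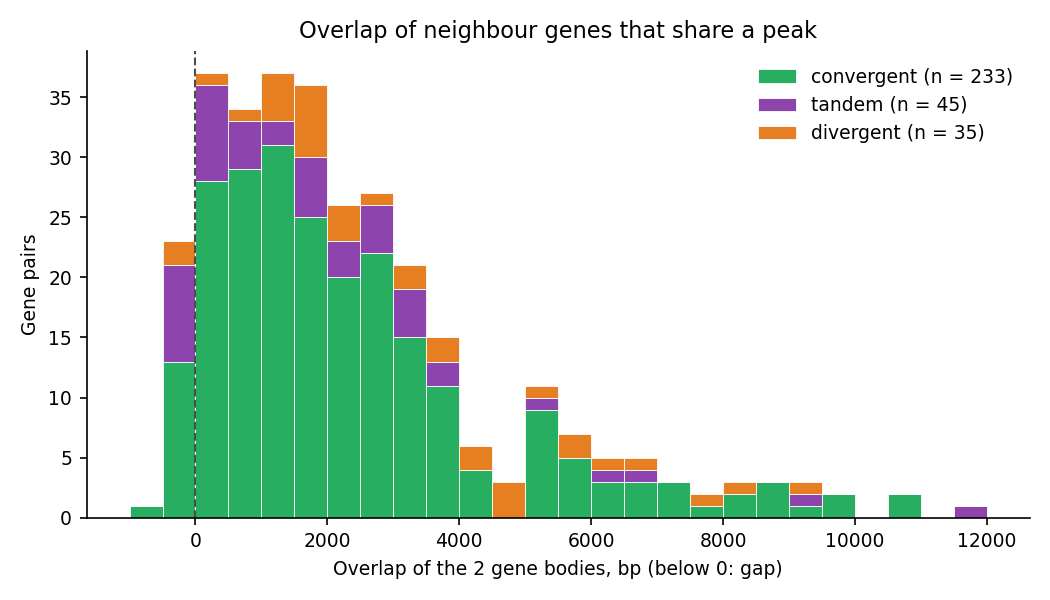
Overlap of the 2 genes of a pair in 500-bp bins (negative values are gaps between genes; the dashed line marks 0) for 313 pairs with known coordinates, stacked by arrangement (233 convergent, 45 tandem, 35 divergent). Most pairs lie right of 0, 289 of 313, with a median overlap of 2004 bp, and only 24 pairs lie left of it.

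The genes of shared peaks also stood out by their names. Tomato gene identifiers were first numbered in steps of 10, and a number that does not end in 0 marks a gene model inserted between earlier ones. Such identifiers made up 14.2% of the genes in shared peaks, against 3.43% of the 8358 other genes with a peak. The identifiers of 1211 of the 1371 pairs (88.3%) were at most 10 apart. Shared peaks were spread unevenly over the genome, from 19.8% of the peaks in genes on chromosome 2 to 8.96% on chromosome 12.

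The enrichment of shared peaks differed from that of peaks in 1 gene by less than the spread between libraries. The enrichment of a peak is the IP signal at its highest summit over the expected background, as a fold. The median enrichment of shared peaks was 7.55, 6.33 and 7.92-fold in the Cnr 42 DPA libraries, 5.69, 5.89 and 5.05-fold in WT 42 DPA, and 5.45, 5.64 and 5.98-fold in WT 39 DPA. Within a library, the median log2 enrichment of shared minus single-gene peaks averaged −0.0048 ± 0.0355 (SD, n = 9 libraries; above 0 in 6; exact sign-flip permutation test, p = 0.68). Shared peaks were wider, with a median of 339 against 332.1 bases, a difference of 6.89 ± 1.75 bases in 9 of 9 libraries (SD; exact sign-flip permutation p = 0.0039, the smallest that 9 libraries can give). A wide peak meets 2 genes more readily than a narrow one, so the definition of a shared peak favours width. The test cannot separate a property of these sites from that definition. When 2 genes were required at the centre of the peak, the difference in width was 1 base (exact sign-flip permutation p = 0.125).

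The difference in enrichment had an order when peaks were split by width into equal parts within each library. Among the narrowest peaks of a library, shared peaks lay 0.0524 log2 units above single-gene peaks on average and were higher in 9 of 9 libraries. In the middle width the difference was −0.0512 and among the widest −0.166 (−0.220 to −0.124), with shared peaks lower in 9 of 9 libraries in both. Averaged over the widths the difference was −0.055, and for peaks at a 3′ end alone it was −0.085 (n = 9 each; exact sign-flip permutation p = 0.0039). The 9 libraries hold largely the same sites, so a p over libraries speaks for repeatability between libraries and not for variation between sites. Shared peaks were 12.95% of the peaks in genes of the narrow, 14.22% of the middle and 15.29% of the wide group. The definition of a shared peak favours this order. By kind of pair, the median enrichment averaged 6.66-fold for pairs of 3′ ends, 6.42 for 3 or more genes, 6.40 for a 3′ with a 5′ end, and 5.58 for a 3′ end with an intron. Pairs of a 3′ end with a coding exon (2.96) and the other pairs (2.71) were the weakest.

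The median enrichment of shared peaks was higher in each Cnr library than in any WT library of the same age. The median log2 enrichment was 2.86 ± 0.17 in Cnr 42 DPA and 2.47 ± 0.12 in WT 42 DPA (SD, n = 3 each), a difference of 0.39 with no overlap between the groups (exact permutation p = 0.1, the smallest possible). It was 2.47 ± 0.12 in WT 42 DPA and 2.51 ± 0.07 in WT 39 DPA (n = 3 each; difference −0.04; exact p = 0.7). Peaks in 1 gene moved with them, and the difference between shared and single-gene peaks was 0.0075 ± 0.0465 in Cnr 42 DPA and −0.0321 ± 0.0331 in WT 42 DPA (n = 3 each; exact p = 0.3). That difference was higher in Cnr in 3 of 3 same-numbered pairs, by 0.0396 on average (exact sign-flip permutation p = 0.25). The higher level in Cnr was found in shared and in single-gene peaks. How efficiently each IP worked was not measured in these lists, and its part in the difference was not tested.

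**Figure D3:**
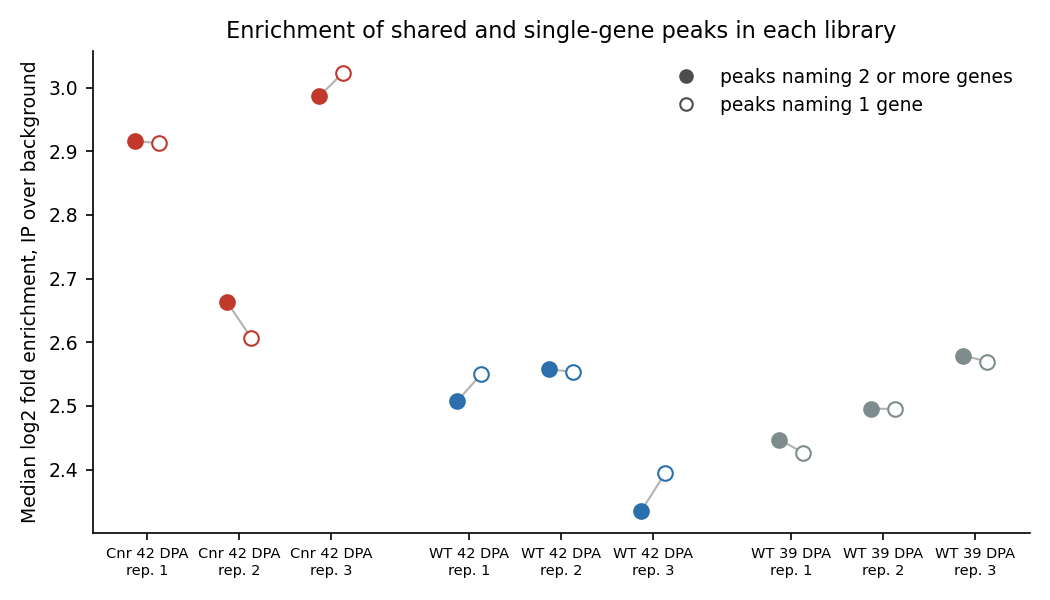
Median log2 fold enrichment of shared peaks (filled) and of single-gene peaks (open) in each of the 9 libraries, Cnr 42 DPA (red), WT 42 DPA (blue) and WT 39 DPA (grey). The filled Cnr points average 2.86, above 2.47 in WT 42 DPA and 2.51 in WT 39 DPA, and the open point of a library lies within 0.06 of its filled one.

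For changes at single sites, the regions called as a peak by each of the 6 libraries compared were tested with limma on the log2 enrichment and called at a Benjamini-Hochberg adjusted p under 0.05 and a change of at least 1.5-fold. In Cnr 42 DPA against WT 42 DPA, 268 of 1093 shared regions were higher (24.5%) and 18 lower (1.65%), beside 25.2% higher and 1.91% lower over all 8007 regions. The median log2 change was 0.37 over the shared regions and 0.36 over all, and 83.6% of shared and 83.4% of all regions were above 0. The shares of shared regions called lay near those of all regions. Of the 1602 regions ever shared, 1093 were shared in all 6 libraries, 64 more were tested but not shared in all of them, and 445 lacked a peak in at least 1 library and were not tested. The test gave every region the same standard error (0.173), so each of the 2167 regions (27.1%) past 1.5-fold was called, and the adjusted p of a region adds nothing to its fold change. Of the 286 shared regions called (26.2%, beside 27.1% of all), 282 had groups that did not overlap (25.8%, beside 26.3% of all regions).

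Since most regions were higher in Cnr, each library was also centred on its median. Then 64 shared regions were higher in Cnr 42 DPA than in WT 42 DPA (5.86%) and 80 lower (7.32%), beside 5.40% higher and 7.76% lower over all regions (13.2% together), and the median log2 change of the shared regions was −0.02 and that of all regions −0.03. The 82 shared regions called both ways were 64 higher and 18 lower, and this count was not formed over all regions. The counts by kind of pair are without centring, where 25.2% of all regions were higher and 1.91% lower. Of regions joining 2 3′ ends, 170 of 712 were higher and 14 lower. With a 3′ end and an intron, 44 of 174 were higher and 1 lower, and with a 3′ and a 5′ end 26 of 99 were higher and 2 lower. Of the regions with 3 or more genes, 19 of 52 were higher and none lower, and of those with a 3′ end and a coding exon, 4 of 29 were higher and none lower. The median log2 change ranged from 0.43 for 3 or more genes to 0.11 for a 3′ end with a coding exon, and a difference between kinds was not tested.

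Between WT 42 DPA and WT 39 DPA few regions changed. Of 1147 shared regions, 16 were higher at 42 DPA (1.39%) and 39 lower (3.40%), beside 1.55% higher and 3.0% lower over all 8533 regions (4.55% together; limma, as above; standard error 0.139 for every region). The median log2 change was −0.04 over the shared regions and −0.05 over all. With each library centred, 23 shared regions were higher (2.01%) and 27 lower (2.35%), beside 2.17% and 2.06% over all regions (4.23% together). Called both ways were 43 shared regions, a count not formed over all regions. All 55 shared regions called without centring had groups that did not overlap (4.80%, beside 4.47% of all regions). Of 726 regions joining 2 3′ ends, 13 were higher and 22 lower, and of 54 with 3 or more genes, 1 was higher and 6 lower. Without 1 library these counts moved. Without WT 42 DPA replicate 2 there were 83 calls among the shared regions (7.20%, beside 5.71% of all regions), with 67 lower (5.82%, beside 4.37%). Without WT 42 DPA replicate 3 there were 25 higher (2.12%, beside 2.49%), and without WT 39 DPA replicate 1 there were 61 lower (5.27%, beside 3.63%). In the comparison of Cnr with WT, 406 shared regions were higher without Cnr 42 DPA replicate 2, the Cnr library of lowest enrichment (36.7%, beside 36.6% of all regions).

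**Figure D4:**
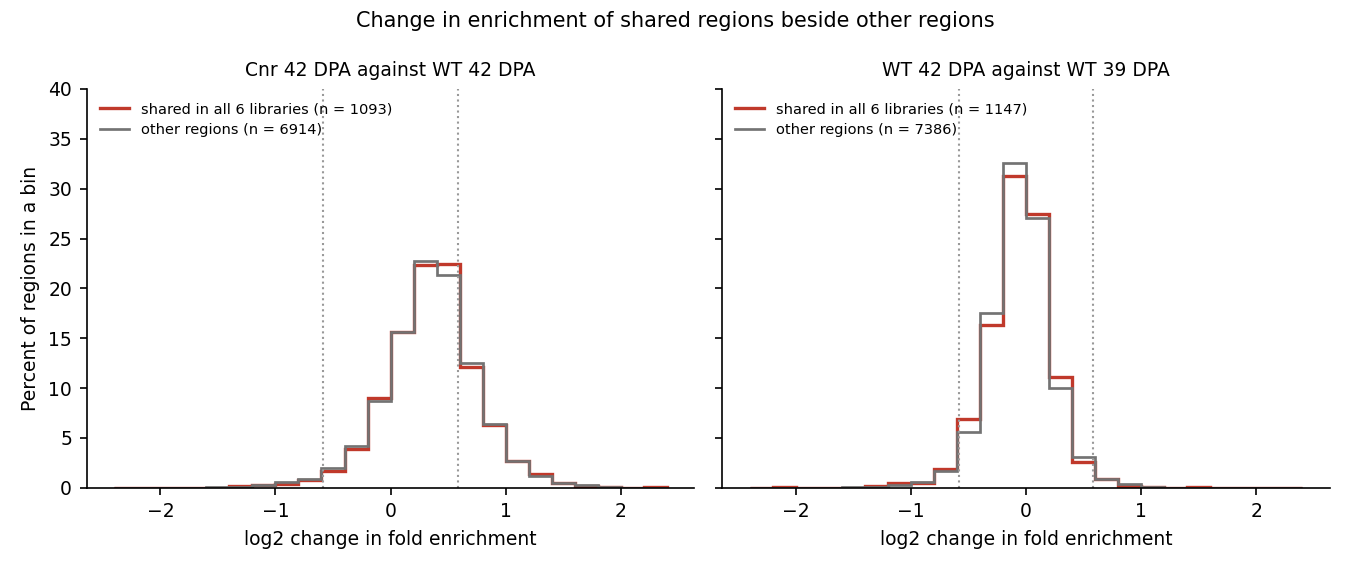
Log2 change in enrichment of shared regions in bins of 0.2 for Cnr 42 DPA against WT 42 DPA (1093 regions) and WT 42 DPA against WT 39 DPA (1147 regions), beside the other regions tested; dotted lines mark 1.5-fold. The Cnr distribution is centred at 0.37 with 268 shared regions beyond the upper line and 18 beyond the lower, and the WT distribution at −0.04 with 16 and 39.

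The parts of the ratio can be read from the lists, because the fold and its p give back the IP number and the background at a summit. Where the input was sparse, the background sat on a constant floor set by the depth of the library, and the enrichment is then an IP level over a constant. Among the 268 shared regions higher in Cnr 42 DPA than in WT 42 DPA, the median log2 IP change was 0.75, and 114 (42.5%) had a background on the floor in all 6 libraries. The 1746 other regions called higher were alike, with a median log2 IP change of 0.74 and 44.8% on the floor. On the floor in all 6 were 30.2% of all 1093 shared regions and 31.1% of the other regions tested. In 58 of the 268 the background changed by more than the IP level did, and so it did in 367 of the 1746 others. Among the 18 that were lower, the median log2 IP change was −0.68, and 9 were on the floor in all 6. For the 135 other lower regions these were −0.82 and 52.6%. Between the WT groups, the 16 higher regions had a median log2 IP change of 0.40 and a median log2 background change of −0.27. In the 116 other higher regions these were 0.65 and −7.64e-05. The 39 lower shared regions had a median log2 IP change of −0.68, with 20 of the 39 on the floor in all 6. Of the 217 other lower regions, 58.1% were on the floor in all 6, with the same median of −0.68. For regions on the floor, the amount of transcript and the methylated share of it cannot be told apart.

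The largest rise in Cnr was at a 5′ end that met the 3′ end of a kinase gene. The region on chromosome 4 (1389721 to 1390241) covered the 5′ UTR of Solyc04g007705.1, which codes for a protein with an NAD(P)-binding Rossmann fold, and the 3′ UTR of Solyc04g007710.3, a mitogen-activated protein kinase of the family that passes on stress and hormone signals. Its enrichment was 21.9, 16.1 and 22.5-fold in Cnr 42 DPA and 5.17, 4.07 and 3.64-fold in WT 42 DPA. In WT 39 DPA it was 9.11, 8.09 and 11.5-fold, between the other groups and overlapping neither. The log2 change was 2.23 for Cnr 42 against WT 42 DPA (limma adjusted p = 5.36e-34) and −1.15 for WT 42 against WT 39 DPA (adjusted p = 3.45e-14). Both comparisons share the WT 42 DPA libraries, so a low value there enters both. The background was on the floor in all WT libraries.

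A convergent pair on chromosome 7 (62488852 to 62489463) had the next largest rise. Solyc07g053960.3 codes for a ubiquitin conjugating enzyme, which hands ubiquitin to target proteins, and Solyc07g053970.3 on the other strand for a calcium channel of the TPC1 kind, an ion channel of the vacuole. The enrichment was 27.4, 20.8 and 31.0-fold in Cnr 42 DPA, 7.32, 7.37 and 6.13-fold in WT 42 DPA, and 15.4, 18.4 and 20.02-fold in WT 39 DPA. The log2 change was 1.91 for Cnr against WT 42 DPA and −1.37 for WT 42 against WT 39 DPA, with no overlap of groups in either. On chromosome 1 (82433956 to 82434418), the pair Solyc01g087600.3 and Solyc01g087610.3 reached 15.9, 10.5 and 18.2-fold in Cnr 42 DPA and 4.65, 3.87 and 4.09-fold in WT 42 DPA (log2 change 1.79). In WT 39 DPA it had 4.62, 4.05 and 4.60-fold, overlapping WT 42 DPA (log2 change −0.07), so that only Cnr stood apart at this pair.

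The peak with 4 genes lay in a cluster of heat shock genes on chromosome 3 (53779803 to 53780326). It named Solyc03g082395.1 (RNA-binding), Solyc03g082400.3 (heat shock protein 21), Solyc03g082410.3 (heat shock induced transcript 2) and Solyc03g082420.3 (heat shock protein) in the 6 lists of Cnr 42 DPA and WT 39 DPA, and only the first pair in WT 42 DPA. Small heat shock proteins are chaperones that hold unfolded proteins and are also made in ripening fruit. The enrichment was 13.9, 12.2 and 14.2-fold in Cnr 42 DPA, 3.88, 4.09 and 3.72-fold in WT 42 DPA, and 15.8, 19.5 and 17.9-fold in WT 39 DPA. It was therefore low in WT 42 DPA alone, with a log2 change of 1.78 for Cnr 42 against WT 42 DPA and of −2.18 for WT 42 against WT 39 DPA, the largest fall of a shared region in that comparison. The log2 background over the floor was 1.91 in Cnr 42 DPA, 2.59 in WT 42 DPA and 0.70 in WT 39 DPA, and the log2 IP level 5.66, 4.56 and 4.86 in the same groups, so the background was highest where the enrichment was lowest. Its part in the change was not tested.

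The fifth rise lay at the ethylene receptor NR (Never-ripe, Solyc09g075440.3), whose product keeps the ethylene response off until it binds ethylene and which is known in tomato for the mutant whose fruit fail to ripen. Its only peak in every list ran from the last exon into the 3′ UTR and lay wholly in the 3′ UTR of Solyc09g075430.3, a gene for the ribosomal protein L19 on the plus strand (chromosome 9, 67557023 to 67560438). The shared region ran between 67559704 and 67560165. The enrichment was 11.8, 9.59 and 13.8-fold in Cnr 42 DPA and 4.41, 4.05 and 3.66-fold in WT 42 DPA, and in WT 39 DPA it was 4.69, 4.87 and 5.83-fold. The Cnr libraries lay above all WT libraries. The log2 change was 1.52 for Cnr 42 against WT 42 DPA (limma adjusted p = 2.78e-16) and −0.34 for WT 42 against WT 39 DPA (adjusted p = 0.075, not called). The log2 IP level was 5.75 in Cnr 42 DPA and 5.77 in WT 42 DPA, while the log2 background was 2.21 in Cnr 42 DPA and 3.75 in WT 42 DPA. Both values are relative to the floor of a library, and on this scale the IP level was nearly equal while the background was lower in Cnr. At this place the background can hold RNA of NR, of the L19 gene or of both, and its part in the change was not tested. From the input reads the study reported less NR transcript in Cnr than in WT, and by IP with qPCR more m6A on NR mRNA.

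Fewer shared regions were called lower than higher in Cnr without centring (18 and 268), and with each library centred 80 were lower and 64 higher. On chromosome 6 (44467206 to 44467527), Solyc06g071950.2, annotated for nucleotide-sugar transport in the Golgi, met Solyc06g071960.3, a nucleoside diphosphate kinase that balances nucleotide pools. The enrichment was 3.73, 3.77 and 3.62-fold in Cnr 42 DPA, 9.43, 10.1 and 7.63-fold in WT 42 DPA, and 8.37, 8.02 and 9.31-fold in WT 39 DPA. Only Cnr was low here, with a log2 change of −1.28 against WT 42 DPA and 0.07 between the WT groups. At Solyc08g068570.3, annotated as a tocopherol cyclase of vitamin E synthesis, and Solyc08g068580.3 (chromosome 8, 57777986 to 57778304), it was 4.90, 3.33 and 4.78-fold in Cnr 42 DPA and 9.31, 9.53 and 8.64-fold in WT 42 DPA (log2 change −1.10). The region of Solyc08g006155.1 and Solyc08g006160.3, shared in 6 of 9 libraries, was also lower in Cnr, with 4.196, 3.83 and 4.12-fold in Cnr 42 DPA and 10.7, 9.51 and 7.32-fold in WT 42 DPA.

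Other regions were high in WT 42 DPA alone. Solyc04g072150.2, a pentatricopeptide repeat protein of a family that binds organelle RNA, and Solyc04g072160.3, an HSP20-like chaperone, met at their 3′ ends on opposite strands (chromosome 4, 59266440 to 59266902). The enrichment was 4.02, 3.24 and 4.30-fold in Cnr 42 DPA, 9.999, 10.03 and 7.60-fold in WT 42 DPA, and 3.35, 3.39 and 3.35-fold in WT 39 DPA. This was the largest rise among shared regions in WT 42 against WT 39 DPA (log2 change 1.44), and in Cnr 42 against WT 42 DPA the region fell by 1.26. Solyc05g018125.1 and Solyc05g018130.3, the second annotated as an oxidoreductase, had 4.74, 3.16 and 4.89-fold in Cnr 42 DPA, 9.59, 10.2 and 8.54-fold in WT 42 DPA, and 5.14, 5.14 and 6.13-fold in WT 39 DPA, with log2 changes of −1.17 and 0.79. At Solyc08g083010.3 and Solyc08g083030.3 the log2 changes were −0.74 and 0.81. The same WT 42 DPA libraries enter both comparisons, so these log2 changes are not independent of each other.

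**Figure D5:**
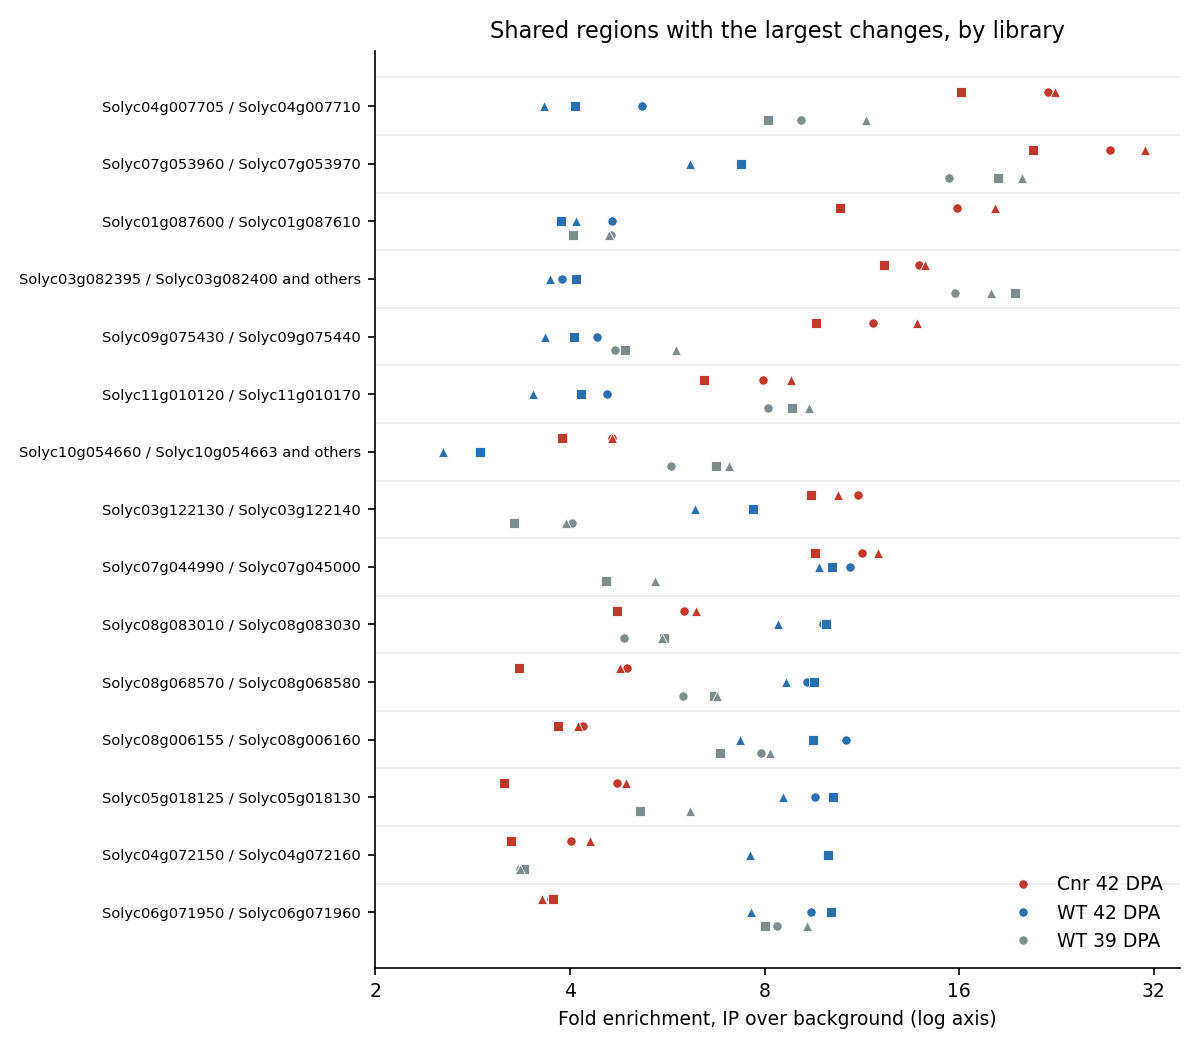
Fold enrichment (log axis) in each library at the 15 shared regions among the 5 largest called rises and the 5 largest called falls of each comparison, Cnr 42 DPA (red), WT 42 DPA (blue) and WT 39 DPA (grey); circles, squares and triangles are replicates 1, 2 and 3. At the largest rise the Cnr libraries lie at 16.1 to 22.5 and those of WT 42 DPA at 3.64 to 5.17, and at the heat shock cluster WT 42 DPA lies alone at 3.72 to 4.09.

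Further regions were among the largest changes between 39 and 42 DPA in WT fruit. At Solyc07g044990.3 and Solyc07g045000.3 (chromosome 7, 58184088 to 58184394) the enrichment was 10.8, 10.2 and 9.71-fold in WT 42 DPA and 4.53, 4.55 and 5.42-fold in WT 39 DPA (log2 change 1.09). The Cnr 42 DPA libraries had 11.3, 9.56 and 12.0-fold there and overlapped WT 42 DPA. Solyc03g122130.3 and Solyc03g122140.3 had a log2 change of 0.94 between the WT groups. Among the falls, Solyc10g054660.2, Solyc10g054663.1 and Solyc10g054670.2 shared a region with 2.89, 2.90 and 2.54-fold in WT 42 DPA and 5.74, 6.72 and 7.05-fold in WT 39 DPA (log2 change −1.22), and with 4.65, 3.89 and 4.65-fold in Cnr 42 DPA. A peak at the 3′ end of 1 gene and in an intron of the other, at Solyc11g010120.2 (annotated as a peroxidase) and Solyc11g010170.2, had 4.57, 4.16 and 3.51-fold in WT 42 DPA and 8.10, 8.82 and 9.37-fold in WT 39 DPA (log2 change −1.11), and 7.97, 6.45 and 8.79-fold in Cnr 42 DPA. At both regions WT 42 DPA was the lowest group. Each region named as a largest rise or fall of a comparison kept its call in that comparison when the libraries were centred.

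The range of enrichment among shared regions was wide. The 1064 regions shared in all 9 libraries had mean enrichments between 1.85 and 23.3-fold with a median of 6.86, and 6468 regions of 1 gene with a peak in all 9 libraries had 1.29 to 30.0-fold with a median of 7.24. The highest were Solyc04g076910.3 with Solyc04g076920.3 (23.3-fold), Solyc07g064080.3 with Solyc07g064090.3 (21.9) and Solyc12g021310.2 with Solyc12g021313.1 (21.5), all pairs of 3′ ends. The lowest were Solyc06g065910.3 with Solyc06g065920.3 (1.85), Solyc06g054400.3 with Solyc06g054410.3 (1.88) and Solyc04g071615.1 with Solyc04g071620.3 (1.96), of which 2 involved a coding exon. Regions of many genes could be strong, as at Solyc06g073390.3, Solyc06g073395.1 and Solyc06g073400.3 (mean 15.7-fold) and at Solyc02g089590.3, Solyc02g089600.3 and Solyc02g089605.1 (mean 14.1-fold), neither of which was called in either comparison.

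For each larger kind, the region at the median of mean enrichment was taken as an example of level, whatever its change between groups. The pair of 3′ ends nearest to the median of its kind, Solyc12g008320.2 and Solyc12g008330.2, had 7.71, 5.72 and 8.65-fold in Cnr 42 DPA, 7.53, 6.28 and 6.46-fold in WT 42 DPA, and 7.13, 6.93 and 7.64-fold in WT 39 DPA. These groups overlapped and neither comparison called the region. Nor were calls made at Solyc03g059020.2 with Solyc03g059030.3 (3′ end with intron, mean 6.66-fold), Solyc08g005015.1 with Solyc08g005020.3 (3′ end with coding exon, 5.24) and Solyc03g019850.3 with Solyc03g019873.1 and Solyc03g019877.1 (3 genes, 6.56). The example of a 3′ with a 5′ end, Solyc12g006990.2 (an Arf GTPase activating protein of vesicle traffic) and Solyc12g006993.1, did change, with 11.1, 8.23 and 10.6-fold in Cnr 42 DPA and 5.39, 5.62 and 4.22-fold in WT 42 DPA (log2 change 0.98). That change is not typical of its kind, in which 26 of 99 regions were higher in Cnr (26.3%, beside 25.2% of all regions). The median log2 change of the kind was 0.40.

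The genes that were assayed singly in the study, with the ALKBH demethylase family, form a short list. Of these 15 genes, 13 had a peak and 4 lay in a shared peak. Besides NR these were SlALKBH5, SlALKBH6 and Solyc02g089800.3. SlALKBH5 (Solyc04g015080.3) had a single peak in each list, and every one was shared with Solyc04g015090.2 (chromosome 4, 5270999 to 5271268). Its enrichment was low and alike in all groups, 2.61, 2.48 and 2.76-fold in Cnr 42 DPA, 2.61, 3.29 and 2.29-fold in WT 42 DPA, and 2.51, 2.38 and 2.70-fold in WT 39 DPA (log2 change −0.05 for Cnr 42 against WT 42 DPA, limma adjusted p = 0.84). SlALKBH6 (Solyc04g045590.3) shared a peak with Solyc04g045600.3 at 3.41, 3.22 and 3.97-fold in Cnr 42 DPA and at 3.50, 3.51 and 3.89-fold in WT 39 DPA, while no peak was called there in WT 42 DPA, so the region was not tested. Over the 9 lists SlALKBH6 had 10 peaks in 7 libraries, 6 of them shared, and 4 libraries held a peak in this gene alone. A WT 42 DPA library thus held a peak of SlALKBH6, though not at the shared region. A region without a call may still hold signal below the threshold of the caller.

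Solyc02g089800.3, a nuclear matrix constituent protein 1-like gene, had 34 peaks over the 9 lists, of which 7 were shared with Solyc02g089790.3. That shared region had 3.45, 2.94 and 3.33-fold in Cnr 42 DPA, 1.996-fold in WT 42 DPA replicate 2 alone, and 2.59, 2.38 and 2.41-fold in WT 39 DPA. SlDML2 (Solyc10g083630), the DNA demethylase gene of ripening, SlALKBH2 (Solyc01g104130) and the MADS-box gene FUL2 (Solyc03g114830) had no shared peak in any list, with 29, 3 and 9 peaks over the 9 lists. Their peaks each named a single gene.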

How the data were processed

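m6A-seq of fruit pericarp covered 18 libraries (9 IP, 9 input) of 3 groups. Per the study's methods, reads were trimmed (cutadapt 1.16, Trimmomatic 0.30), aligned with BWA to tomato SL3.0, peaks were called with MACS for each IP against its input, and PeakAnnotator added ITAG3.2 genes. The deposited lists of the authors hold a fold enrichment (a ratio), a −log10 p and a −log10 q for each summit, and a peak score, which is the −log10 q times 10. Gene descriptions come from the study's gene lists and the lists' annotation, and no gene or peak sequence was used here.

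The 105726 lines were collapsed to peaks, and the highest of the 92197 summits in all was used per peak. The IP number and background were recovered from fold and p, whole within 0.1 for 99.86% of summits. The floor of the background was 44.6 to 51.1 fragments per library, the only depth the lists give. Counting intervals were therefore not formed. Group differences used exact two-sided permutation tests over libraries (SciPy 1.17.1). Regions were tested with limma 3.58.1 (R 4.3.3, Benjamini-Hochberg adjustment over all regions tested), whose prior degrees of freedom were infinite. The limma script was tested on simulated data. The deviations of same-numbered Cnr and WT 42 DPA libraries from their group means correlated at 0.184, 0.442 and 0.341. Cnr replicate 1 correlated slightly better with WT 42 DPA replicate 3 (0.1895). The replicate numbers were taken as pairs only in the replicate block and the added paired tests, and the main tests were unpaired. The replicate block left the 286 calls at 286, and on a balanced design it cannot alter a fold change.

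Named were, per comparison, up to 5 called and not overlapping shared regions with the largest rise and 5 with the largest fall, the 3 highest and 3 lowest in mean enrichment, the 3 with the most genes, 1 region at the median of each larger pair class, and the study's genes in a shared peak. The members and lists were chosen with earlier results of these data known. Alternatives were other thresholds, definitions, scalings, filters and left-out libraries. Calls restricted to groups that do not overlap and paired tests over libraries were added after seeing the data.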

Additional observations from a re-analysis of the deposited data

How the results depend on the processing

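Differences between groups in the number and share of shared peaks never reached 0.05 in any setting run, since the smallest p the design allows is 0.1, and several small ones turned. For Cnr 42 against WT 42 DPA, the difference in the share of shared peaks was −0.00109 percentage points with peaks of −log10 q at least 10, −0.0307 with enrichment at least 2 and −0.163 with 2 genes required at the peak centre, and that of transcripts whose peaks are all shared −0.0697, −0.0953 and −0.399 (−0.0643 to 0.111 with 1 library left out). Pairs of a 3′ with a 5′ end turned to −0.0265 and, for WT 42 against WT 39 DPA, −0.0356 at the centre, and the difference in pairs of 3′ ends between the WT groups turned to −0.0147 at enrichment 2. With 1 library left out, the WT difference ranged over −0.508 to 0.629 for pairs of 3′ ends, −0.350 to 0.0228 for 3′ end with intron, −0.222 to 0.172 for 3′ end with coding exon, −0.0283 to 0.484 for other pairs and −0.0859 to 0.0254 for the median log2 enrichment of shared peaks. The causes were not tested.

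Shared minus single-gene log2 enrichment was −0.0309 at enrichment 2 (exact sign-flip permutation p = 0.0352), −0.0304 at the centre (p = 0.0469), −0.0550 within widths and −0.0850 at 3′ ends, and −0.0123 to 0.00202 with 1 library left out. The width difference was 1 base at the centre (exact permutation p = 0.125). The difference in the percent of peaks on the background floor, −0.0177 over all peaks (exact permutation p = 0.92), was −0.534 at enrichment 2, 0.962 at the centre and −0.123 to 0.112 with 1 library left out.

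For Cnr 42 against WT 42 DPA, the 286 calls (268 higher, 18 lower) became 144 (64, 80) with centring (13.2%, beside 13.2% of all regions), where the median log2 change was −0.021, 94 (91, 3) of the 549 shared regions whose background left the floor in each of the 6 libraries (17.1%, beside 17.8%), and 563 (525, 38) with no fold minimum (51.5%, beside 50.5%). With 1 library left out they ranged over 222 to 428 (197 to 406 higher, 16 to 26 lower). The share over all regions moved too, and the 406 higher without Cnr 42 DPA replicate 2 were 36.7%, beside 36.6% of all regions. For WT 42 against WT 39 DPA, the 55 calls (16, 39) became 13 (4, 9) of 613 above the floor (2.12%, beside 2.18% of all regions), 32 (8, 24) on log2(ratio + 1) (2.79%, beside 2.41%) and 188 (59, 129) with no minimum (16.4%, beside 15.3%), and 53 to 83 (14 to 25 higher, 29 to 67 lower) with 1 library left out. The 83 calls came without WT 42 DPA replicate 2 (7.20%, beside 5.71% of all regions). Fewer regions could be tested above the floor. The replicate block left the calls at 286 and 55. On a balanced design a block leaves every fold change as it was, so these counts say little about pairing. The same-numbered WT libraries correlated at 0.227, 0.336 and 0.084; the last is under 0.1, so they were treated as sharing only a number, although each WT 42 DPA library correlated best with its own number. Sign flips of same-numbered pairs keep the direction of every difference by design, since the mean of the paired differences equals the difference of the means. With centring, 4 named regions lost their call in Cnr against WT 42 DPA (Solyc10g054660.2 at 0.27, Solyc11g010120.2 at 0.53, Solyc04g076910.3 at 0.41, Solyc12g021310.2 at 0.45), and Solyc04g071615.1 gained one at −0.77. Read totals of the libraries were not used here, and a missing peak is not an absence of m6A.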

Other observations

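Among pairs with known strands, the enrichment of peaks could be set side by side by orientation. Pairs of 3′ ends had a median enrichment of 6.83-fold on opposite strands and 6.75-fold on the same strand, averaged over the 9 libraries. For a 3′ end with an intron these values were 5.55 and 5.73-fold. For a 3′ end with a 5′ end they were 6.10 and 7.34-fold, and the opposite-strand value was lower in every one of the 9 libraries. The pairs with known strands are those whose genes were named as a closest start site or as a downstream gene of some peak. They are not a random draw of all pairs, and no test was run on these values.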
